A study of Mus musculus with 6 samples.

Results

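The genes described here are 9 that encode pacemaker and repolarising channels of the heart: the potassium channel subunits Kcne1, Kcnq1, Kcnh2, Kcnj3, Kcnj5, Kcnd2 and Kcnd3 and the hyperpolarisation-activated channels Hcn2 and Hcn4. Their probe sets, the groups of short probes that read one transcript on the array, were taken where the platform annotation gives exactly 1 gene symbol and that symbol is one of the 9. This gave 19 of the 45037 probe sets that are not controls, for 8 of the 9 genes. Hcn4, the main pacemaker channel gene of the sinus node, had none, so it is not analysed here.

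Heart RNA of E10.5 mouse embryos of the C57BL/6N background was measured on Affymetrix expression arrays, 3 of wild-type (WT) and 3 of global RhoE knockout (KO) embryos, which die in mid-gestation. RhoE is the protein name of Rnd3, a GTP-binding protein that restrains the kinase ROCK1, and the knockout is a gene trap present in every cell of the embryo, so that a change in the heart need not start in the heart. The series describes 3 littermate pairs, but a replicate number is not tied to a litter in the labels, and how many hearts went into each RNA is not given. Each p-value is thus set against the spread among arrays, part of which may be technical.

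A heartbeat starts where hyperpolarisation-activated HCN channels let a small inward current depolarise the cell, and it ends when potassium channels return the membrane to rest. Kcnq1 forms the pore of the slow delayed rectifier and Kcne1 its small regulatory subunit, while Kcnh2 forms the rapid delayed rectifier. Kcnd2 and Kcnd3 are pore subunits of the fast transient outward current, and Kcnj3 and Kcnj5 assemble into the acetylcholine-gated channel that slows the atria and the sinus node. At this stage the heart tube has looped and beats, with pacemaker activity at its inflow end.

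Signals are MAS5 values on a linear scale. A working low-signal limit was set at each array's 40th percentile, 44.5 to 52.8, and 14 of the 19 probe sets lay above it on at least 3 of the 6 arrays and were tested. Because probe sets differ in how strongly they bind, the level of one probe set is not compared with that of another. As a check of the labels, Rnd3 itself, by its brightest probe set, had signals of 862 to 954 in WT, 5.89 and 12.3 on KO arrays 1 and 2, and 121 on KO array 3, where the limit was 44.5.

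Xist, Y-linked genes and a set of inflow genes set KO arrays apart before any channel is considered. Xist, transcribed from the inactive X chromosome of female cells, read 10251 to 12474 on the WT arrays, 8884 on KO array 2, 539 on KO array 1 and 28.4 on KO array 3. The Y-linked gene Eif2s3y read 312 to 551 in WT and 2214, 793 and 2339 on KO arrays 1, 2 and 3. Uty and Kdm5d, also Y-linked, were likewise higher on every KO array than on any WT array. The groups thus differed in these sex-linked signals. Beyond fits with Xist as a covariate, their part in the channel values was not tested. On KO array 3 the sinus node factor Shox2 read 96.2, against 1531 to 2448 on the other 5 arrays. Other genes of the sinus venosus and atria were low there too, namely Vsnl1 (154 against 1385 to 1814), the atrial transcription factor Nr2f1 (583 against 2195 to 3054) and the atrial potassium channel gene Kcna5 (325 against 1252 to 1823). These genes were singled out after their values were seen, and others of their lists were not low there: Nppa had its highest value of the 6 arrays on KO array 3, and Gjc1, Myl4 and Gja5 lay within the WT range or above it. Isl1, below WT on every KO array, was highest of the 3 there. Smoc2 (82.6 against 310 to 538), Nr2f2 (696 against 1766 to 2314) and Stard10 (658 against 1896 to 2263) were also lowest on KO array 3. That array was the lowest of the 6 in 7 of 16 sinus node and conduction genes and 5 of 9 atrial genes tested, against 20.1% of all genes. It was the lowest in 0 of 10 ventricular genes tested. In tissue RNA, fewer cells of a type and less RNA per cell cannot be told apart. The difference without KO array 3 is therefore also given for each channel gene.

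Of the 8 genes measured, Kcne1 alone rose in the knockout hearts (limma, Benjamini-Hochberg adjusted over 12712 genes, each read by its brightest probe set, adjusted p = 0.0454), and none fell. Over all genes tested, 1.27% passed, 0.787% as higher and 0.488% as lower. The 162 genes called became 0, 0 and 4 on dropping WT array 1, 2 or 3 in turn, and 916, 65 and 2 on dropping each KO array in the same order. Kcnh2 was lower on every KO array than on any WT array and missed the threshold. Kcnq1, Kcnj3, Kcnj5, Kcnd2, Kcnd3 and Hcn2 overlapped between the groups. With each of 27404 probe sets tested on its own, no member probe set passed (0 of 14, against 0.595% over all probe sets), and 2 of 14 had an unadjusted p below 0.05, against 16.8%. The groups did not overlap for 2 of the 14, against 23.1% of all probe sets tested, and the log2 spread was wider in KO than in WT for 10 of the 14, against 57.4%. The median log2 difference, KO minus WT, was 0.06 over the 8 genes and -0.04 over all genes tested.

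**Figure D1:**
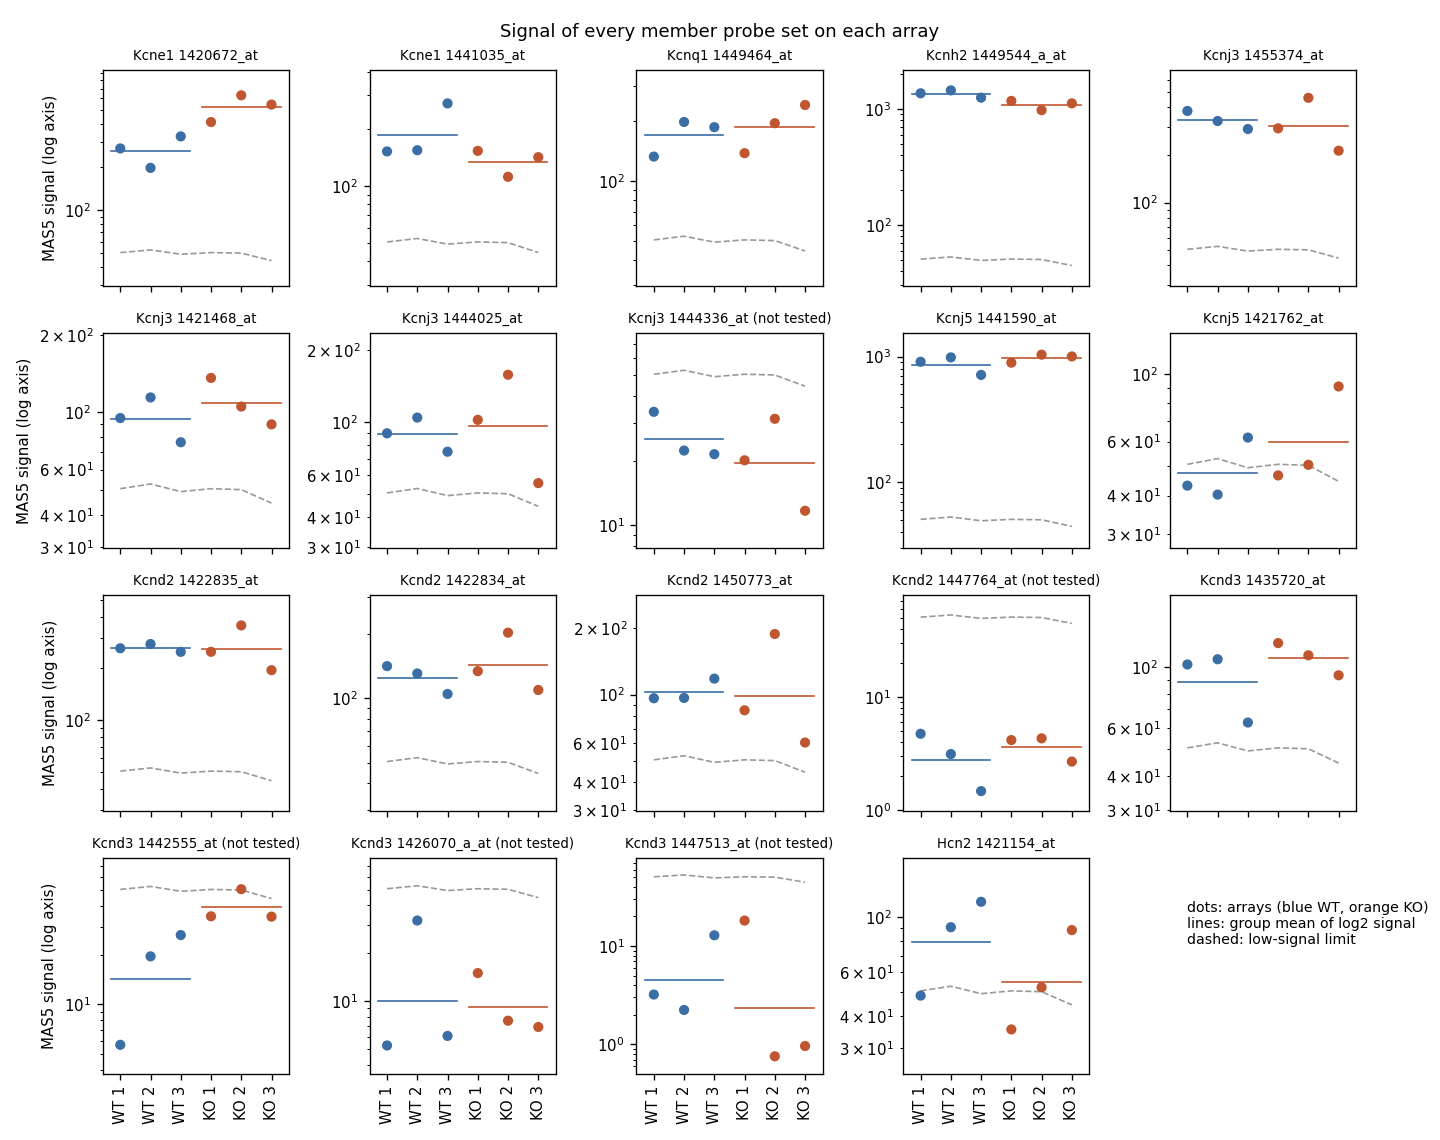
MAS5 signal (log axis) of each of the 19 member probe sets on the 3 WT (blue) and 3 KO (orange) arrays, with the mean of log2 signal per group as a line and the low-signal limit dashed. The brighter Kcne1 probe set is higher and the Kcnh2 probe set lower on every KO array than on any WT array, and 5 probe sets lie at or below the limit on nearly every array and were not tested.

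Kcne1 lies on chromosome 16 at 92346001 to 92359468 (GRCm38.p6). Its brighter probe set, 1420672_at, which is annotated to a RefSeq mRNA, read 268, 197 and 326 in WT hearts and 409.8, 629 and 542 in KO hearts. The lowest KO array was above the highest WT array. The difference was 1.01 on the log2 scale (SE 0.20, n = 3 per group), or 2.01-fold. Adjusted over all probe sets in place of genes, the limma adjusted p was 0.0573. The KO array with Xist closest to the WT level, KO array 2, had the highest Kcne1 signal of the 6. Its Eif2s3y, Uty and Kdm5d signals were still above those of every WT array. With log2 Xist as a covariate in limma the difference was 1.11 (SE 0.28, adjusted p = 0.0753). Beyond that fit, the part of the sex-linked signals in Kcne1 was not tested.

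The second Kcne1 probe set, 1441035_at, annotated to an expressed sequence tag, had a lower mean in KO. The WT hearts gave 152, 154 and 272 and the KO hearts 153, 112 and 142, and the groups overlapped (log2 difference -0.47, SE 0.25, limma adjusted p = 0.372). Its highest value came from WT array 3, without which the difference was -0.19 (SE 0.22, adjusted p = 0.727), and the other 2 WT arrays were close to KO array 1. Within each array, the log2 ratio of the brighter to the dimmer probe set was 0.82, 0.35 and 0.26 in WT and 1.42, 2.49 and 1.94 in KO. The ratio was thus higher on every KO array, by 1.47 on average. An exact two-sided permutation test gave p = 0.1, the smallest that 3 against 3 arrays allow, and 0.533 adjusted over the 8 pairs of tested probe sets of one gene. The ratio was examined after the 2 probe sets had been seen to differ in direction, and an unequal change was not established by this test. Which Kcne1 transcripts either probe set reads was not analysed here.

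**Figure D2:**
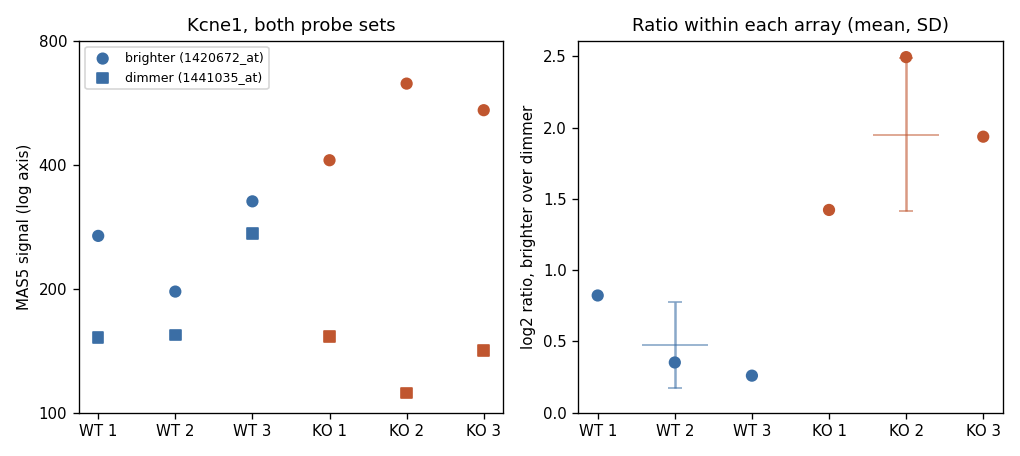
Left, MAS5 signal (log axis) of the brighter (circles) and dimmer (squares) Kcne1 probe sets on each WT (blue) and KO (orange) array. Right, the log2 ratio of the 2 on each array, with mean and SD (n = 3 per group), which is 0.26 to 0.82 in WT and 1.42 to 2.49 in KO.

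The Kcne1 call was sensitive to the processing, while the direction of the brighter probe set was not. Averaging both probe sets left 0.27 (SE 0.20, adjusted p = 0.583). The call was also missed when dim probe sets were kept in the fit (adjusted p = 0.0731), with Xist as covariate (0.0753), without the intensity trend (0.206), and on leaving out WT array 1, 2 or 3 or KO array 2 or 3 (0.162, 0.192, 0.114, 0.0899 and 0.140). Without KO array 3 its log2 difference was 0.98. Over these and the other alternatives the log2 difference of the gene stayed between 0.27 and 1.18.

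**Figure D3:**
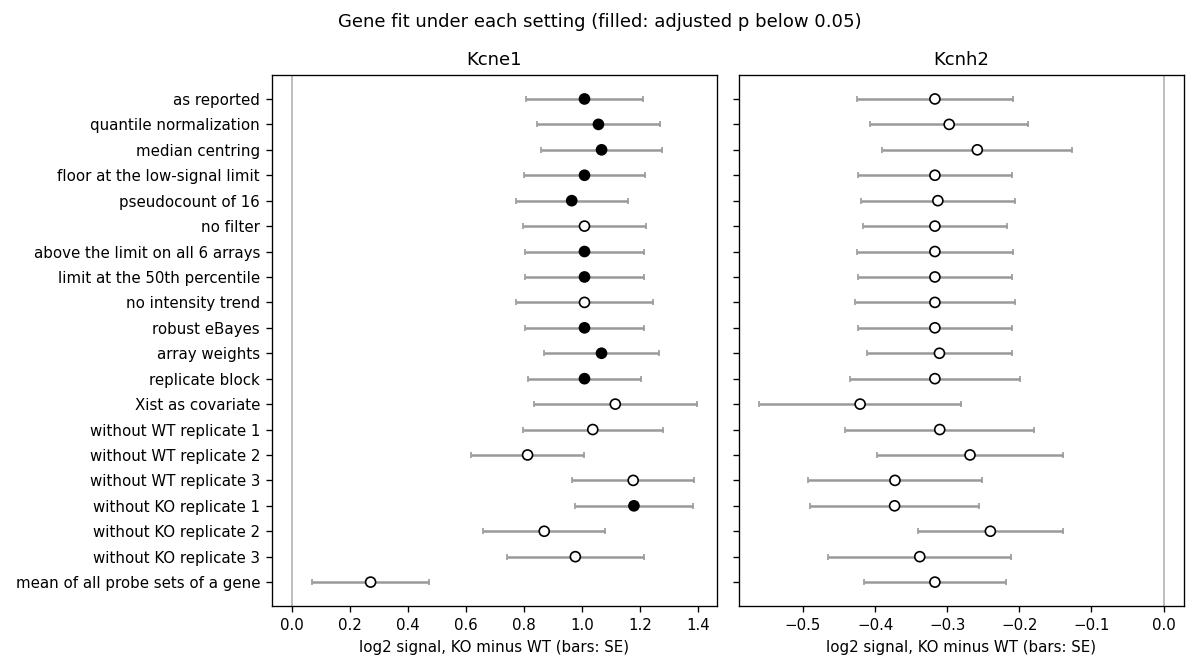
Log2 signal difference, KO minus WT, with limma's standard error, for Kcne1 (left) and Kcnh2 (right) as reported and under each alternative, with filled points where the adjusted p is below 0.05. Kcne1 ranges from 0.27 to 1.18 and passes under 10 of 19 alternatives, and Kcnh2 ranges from -0.42 to -0.24 and passes under 0.

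Kcnq1, whose protein carries the pore that Kcne1 regulates, overlapped between the groups. Kcnq1 (chromosome 7, 143106877 to 143427050) read 133, 199 and 187 in WT, against 138, 196 and 242 in KO. KO array 3 was highest and WT array 1 lowest, and the remaining values were interleaved. The difference was 0.14 (SE 0.24, limma adjusted p = 0.786). Without KO array 3 it was -0.05.

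Kcnh2 lies on chromosome 5 at 24319589 to 24351684, on the minus strand. Its probe set, 1449544_a_at, read 1369, 1451 and 1256 in WT, against 1176, 978 and 1121 in KO. All 3 KO values lay below the 3 WT values, with KO array 2 the lowest. The log2 difference was -0.32 (SE 0.11), a KO level 0.803 times that of WT, and the limma adjusted p was 0.137, ranging from 0.0803 to 0.394 over 19 alternatives. The difference had the same sign in each of them, and was -0.34 without KO array 3. Of all genes tested, 15.5% had every KO array below every WT array.

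The RefSeq start site listed for Kcnh2 lies 22093 bases inside the gene, which has long and short transcripts with different first exons. Its promoter window, 250 bases before to 50 after that start (chr5:24329542-24329841, minus strand, GRCm38.p6), is shown because Kcnh2 was the one member lower on every KO array. Capitals mark the GC box GGGCGG.
Kcnh2: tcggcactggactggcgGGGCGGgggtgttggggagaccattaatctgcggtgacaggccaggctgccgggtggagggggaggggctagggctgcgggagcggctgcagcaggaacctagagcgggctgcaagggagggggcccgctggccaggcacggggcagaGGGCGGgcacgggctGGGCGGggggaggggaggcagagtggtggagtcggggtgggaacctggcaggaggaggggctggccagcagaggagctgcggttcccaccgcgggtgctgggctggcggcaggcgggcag
The GC box, searched on both strands, is found in 35.7% of the 32851 promoter windows in the RefSeq table and in 6 of the 7 windows of member genes. Searched in the same way, the GATA motif AGATAA (11.2% of windows), the T-box motif GGTGTGA (3.98%), the TATA box TATAAA (13.6%) and the MEF2-type motif TATTTATA (1.7%) were in no member's window, and the NKX2-5 motif AAGTG (46.4%) was in those of Kcnj5 and Kcnd3. A match is a description of the letters, and no match says only that they are not in this window.

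**Figure D4:**
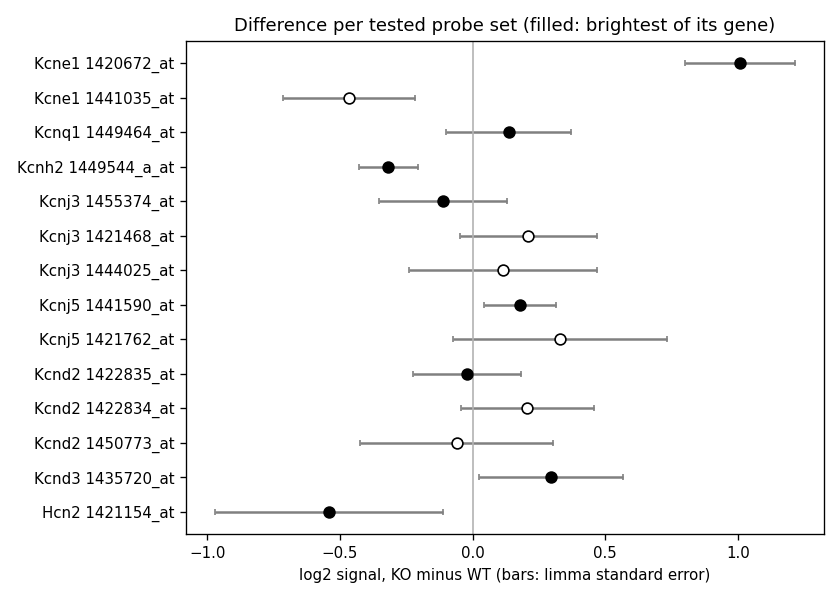
Log2 signal difference, KO minus WT, of each of the 14 tested member probe sets, with limma's standard error (n = 3 arrays per group). The brightest probe set of each gene is filled, and values run from -0.54 for Hcn2 to 1.01 for the brighter Kcne1 probe set.

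The transient outward channel gene Kcnd2 (chromosome 6, 21215346 to 21729805) differed little in mean level between the groups, 263 ± 13.8 in WT and 267 ± 81.5 in KO (SD, n = 3), with a larger SD among KO hearts. Its brightest probe set, 1422835_at, read 262, 277 and 249 in WT, against 249.7, 355 and 195 in KO. KO array 2 was the highest and KO array 3 the lowest of the 6, and KO array 1 was at the WT level. The log2 difference was -0.02 (SE 0.20, limma adjusted p = 0.967). Probe set 1422834_at read 142, 131 and 105 in WT, against 134, 203 and 109.5 in KO. Probe set 1450773_at read 96.2, 96.5 and 118 in WT, against 84.8, 188 and 60.6 in KO. In each of the 3, KO array 2 was the highest of the KO arrays and KO array 3 the lowest. The fourth, 1447764_at, lay between 1.47 and 4.71 and was not tested.

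Kcnj3, a pore subunit of the acetylcholine-gated channel (chromosome 2, 55411798 to 55598145), varied among the KO hearts in the same order. Its brightest probe set, 1455374_at, read 379.9, 328 and 292 in WT, against 295, 459.9 and 213 in KO. The log2 difference was -0.11 (SE 0.24, limma adjusted p = 0.827), with KO array 2 above and KO array 3 below every WT array. Probe set 1444025_at read 89.8, 104 and 75.2 in WT, against 102, 158 and 55.6 in KO. Probe set 1421468_at differed in order, with 95.1, 114 and 76.6 in WT and 136, 105 and 89.9 in KO. The fourth, 1444336_at, read 11.7 to 33.8, below the limit on every array, and was not tested.

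Of the 14 member probe sets tested, 5 had KO array 2 as the highest and KO array 3 as the lowest KO value, an order found in 18.6% of all probe sets tested. All 5 are among the 6 of Kcnd2 and Kcnj3, which are set together here because of that order, so their share is a description. Probe sets of one gene share their transcript and are not independent. In those 5, KO array 2 read 1.82 to 3.10 times KO array 3. A ratio of at least 1.8, a threshold chosen after the values were seen, was found in the same 5 of 14 and in 5.27% of all probe sets tested. In WT hearts the highest over the lowest value of the same 5 was 1.11 to 1.39. Without KO array 3 the log2 differences of the 6 lay between 0.15 and 0.51, and none passed. With Xist as a covariate, Kcnd2 had 0.45 (SE 0.19, adjusted p = 0.219) and Kcnj3 0.48 (SE 0.20, adjusted p = 0.207). KO array 2 was the KO array with Xist near the WT level, and KO array 3 had the lowest Xist and the low inflow genes. The part of either in the order of Kcnd2 and Kcnj3 was not tested.

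**Figure D5:**
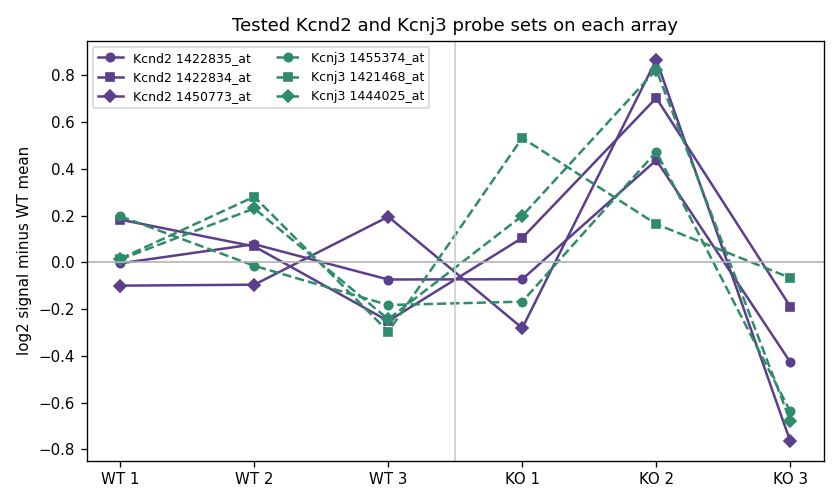
Log2 signal minus the WT mean for the 3 tested probe sets of Kcnd2 (solid) and of Kcnj3 (dashed) on each of the 6 arrays. KO array 2 lies above and KO array 3 below the other KO arrays in 5 of the 6 probe sets, with Kcnj3 1421468_at the exception.

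The promoter windows of both genes are shown because their probe sets varied together among the KO arrays. The Kcnd2 window is chr6:21215096-21215395 and the Kcnj3 window chr2:55435720-55436019, both on the plus strand of GRCm38.p6, and capitals mark the GC box. The Kcnd2 window is at the start of the gene, while the listed Kcnj3 start is 24172 bases inside it.
Kcnd2: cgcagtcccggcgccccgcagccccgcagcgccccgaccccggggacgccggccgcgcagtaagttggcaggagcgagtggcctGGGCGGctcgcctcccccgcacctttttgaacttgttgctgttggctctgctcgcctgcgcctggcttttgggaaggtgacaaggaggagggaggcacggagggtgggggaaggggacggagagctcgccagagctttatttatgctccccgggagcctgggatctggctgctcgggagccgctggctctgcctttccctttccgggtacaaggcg
Kcnj3: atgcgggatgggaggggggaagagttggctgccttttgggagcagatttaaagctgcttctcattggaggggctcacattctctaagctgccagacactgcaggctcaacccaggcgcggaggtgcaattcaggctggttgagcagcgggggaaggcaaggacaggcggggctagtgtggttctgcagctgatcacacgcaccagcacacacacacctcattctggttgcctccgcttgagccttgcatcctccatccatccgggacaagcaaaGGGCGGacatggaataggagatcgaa
Each holds a single GC box, before the start in Kcnd2 and after it in Kcnj3, and none of the other 5 motifs.

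Kcnj5, the partner of Kcnj3 in the acetylcholine-gated channel (chromosome 9, 32314706 to 32344380), did not show the order of Kcnj3. Its brightest probe set, 1441590_at, read 909, 986 and 715 in WT, against 894, 1036 and 1003 in KO. WT array 3 was the lowest, and KO arrays 2 and 3 were slightly above the highest WT array (log2 difference 0.18, SE 0.13, limma adjusted p = 0.482). It was 0.16 without KO array 3 and 0.044 without WT array 3. The dim probe set 1421762_at read 43.1, 40.3 and 61.9 in WT, against 46.5, 50.4 and 90.9 in KO, above the limit on 3 of the 6 arrays, with a difference of 0.33 (SE 0.40). Both Kcnj5 probe sets were thus higher on KO array 3 than on KO array 1.

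Kcnd3, the other transient outward subunit (chromosome 3, 105451890 to 105674002), was measured by 1 of its 4 probe sets. That one, 1435720_at, read 102, 107 and 62.7 in WT, against 123, 111 and 93.4 in KO. WT array 3 was the lowest, and the groups overlapped (log2 difference 0.29, SE 0.28, limma adjusted p = 0.592). It was 0.40 without KO array 3 and 0.049 without WT array 3. Of the others, 1426070_a_at read 5.28 to 32.0 and 1447513_at 0.757 to 18.1, below the limit on all 6 arrays. The fourth, 1442555_at, read 5.66, 19.7 and 26.6 in WT, against 34.6, 50.8 and 34.5 in KO. Every KO value exceeded every WT value, but 1 of the 6 arrays alone passed the limit, so the probe set was not tested and no fold is given.

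Hcn2, a pacemaker channel subunit (chromosome 10, 79716634 to 79736108), was near the limit. Its single probe set read 48.4, 90.8 and 115 in WT, against 35.5, 52.3 and 88.4 in KO. The first array of each group was below the limit, and the values overlapped (log2 difference -0.54, SE 0.44, limma adjusted p = 0.521). It was -0.89 without KO array 3, -0.90 without WT array 1, -0.28 without WT array 3 and -0.23 without KO array 1. The standard error is the widest among the 8 genes, so a difference of this size was not detectable at this signal.

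The other channel genes that set rhythm and repolarisation were described from a list. Of 29 genes listed, 26 had a probe set and 17 were tested. None passed in limma at the adjusted threshold, 0 of 17 had an unadjusted p below 0.05, against 20.3% of all genes, and 0 had groups that did not overlap, against 26.3%. The median log2 difference was 0.05, against -0.04 over all genes. The smallest p values belonged to Kcna5 (-0.88, SE 0.45, adjusted p = 0.299), to Kcne1l, now Kcne5, a relative of Kcne1 (0.37, SE 0.23, adjusted p = 0.399), and to Kcnj11, the pore of the ATP-sensitive channel (0.15, SE 0.12, adjusted p = 0.493). The Kcna5 value rested on KO array 3 and was -0.16 without it. The pacemaker gene Hcn3 and the inward rectifier gene Kcnj2 were below the limit on all 6 arrays.

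Auxiliary subunits and regulators gave no call either. Of 17 tested, none passed in limma, 2 had an unadjusted p below 0.05, against 20.3% of all genes, and the median was -0.02. Those 2 were Cav3, the muscle caveolin (0.30, SE 0.10, adjusted p = 0.143), with every KO array above every WT array, and Gnao1, a G protein alpha subunit (-0.36, SE 0.13, adjusted p = 0.169), with every KO array below. The anchor protein Akap9, which binds the Kcnq1 and Kcne1 channel, had -0.02 (SE 0.11).

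Among sinus node and conduction markers, 2 of 16 tested fell, against 0.488% of all genes, and 14 did not pass. An unadjusted p below 0.05 was found for 5 of the 16, against 20.3%, and every KO array lay below every WT array for 6, against 15.5%. The difference was negative for 14, against 56.2% of all genes, with a median of -0.30. The 2 were Tbx3, a repressor that keeps conduction tissue from taking on chamber features (-0.81, SE 0.13, limma adjusted p = 0.0344), and the ligand Bmp4 (-0.50, SE 0.09, adjusted p = 0.0374). Next was the pacemaker calcium channel gene Cacna1d (-0.53, SE 0.14, adjusted p = 0.0821). Without KO array 3 the list's median was -0.06, 8 of 16 were negative and 0 passed, in a fit where 2 of all genes passed. Tbx3 then had -0.82 (adjusted p = 0.122), Bmp4 -0.46 (adjusted p = 0.135), Isl1 -0.70, Cacna1d -0.51 and Tbx2 -0.31. Shox2 went from -1.44 to 0.05 and Vsnl1 from -1.09 to 0.03 without KO array 3. This list was chosen with the falls of Tbx3 and Bmp4 already known.

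Of 9 atrial genes tested none passed in limma and 2 had an unadjusted p below 0.05, against 20.3% of all genes (median -0.07, and 0.05 without KO array 3). Of 10 ventricular genes, Nppb, a natriuretic peptide, and Cited1, a ventricular co-regulator, rose (0.97, SE 0.17 and 0.92, SE 0.17, adjusted p = 0.0360 and 0.0389). Over all genes, 0.787% passed as higher. In the ventricular list 5 of 10 had an unadjusted p below 0.05, against 20.3%. For 3 of them every KO array lay above every WT array, against 10.8% of all genes, and for 2 below, against 15.5%. Cited1, Irx4, Hey2 and Irx2 had their highest value of the 6 arrays on KO array 3, and the other genes of the list did not. The list's median was 0.13, and 0.04 without KO array 3. Without KO array 3 Nppb and Cited1 had 0.87 and 0.71 and missed the threshold (adjusted p = 0.126 and 0.122), in a fit where 2 of all genes passed. The summed signal of the atrial list was 89816 to 93056 in WT and 90704 to 96451 in KO, and that of the ventricular list 86449 to 92700 and 90920 to 98840. Nppa, Myl7 and Myl4 made up most of the atrial sum on every array, and Myl2 and Myl3 most of the ventricular sum. These sums thus say little of dimmer genes such as Nr2f1, at 2195 to 3054 in WT and 583 to 2914 in KO.

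The labelled tissue was borne out by 11 of 11 cardiomyocyte genes tested, none below the limit on all arrays, with summed signals of 247585 to 269615 in WT and 230681 to 262154 in KO. They gave no call in limma, 2 had an unadjusted p below 0.05, against 20.3% of all genes tested, and the median was -0.09. Neurons also use Kcnd2 and Kcnj3. The neuronal list had 9 of 11 genes tested, no call (1 unadjusted), and sums of 1656 to 1909 in WT and 1558 to 1762 in KO, with 1558 on KO array 2 and 1648 on KO array 3. The part of neurons in the values of Kcnd2 and Kcnj3 was not tested. Endothelial genes gave no call in 10 (2 unadjusted, sums of 9304 to 10158 and 9375 to 10860), nor did 7 erythroid genes (0 unadjusted, sums of 92724 to 110521 and 95682 to 110226). All 8 tested endoderm genes and all 8 tested foregut genes had a negative difference, against 56.2% of all genes (3 and 2 unadjusted, against 20.3%), with medians of -0.83 and -0.41. However, Alb, Apom and Shh were above the limit on all 3 WT arrays and on 1 KO array, so they entered the test mainly through WT. The sums of the 2 lists were 1747 to 7890 and 5942 to 6591 in WT and 545 to 2277 and 3450 to 5485 in KO, and the alpha-fetoprotein gene Afp, from 1116 to 6054 in WT and from 2.78 to 1074 in KO, made up most of the endoderm sum on the 3 WT arrays. Afp did not pass (adjusted p = 0.125). Krt8, at 3006 to 3563 in WT and 1248 to 2987 in KO, and Krt18, at 1655 to 1924 and 1017 to 1613, together made up most of the foregut sum. Albumin (Alb), at 87.8 to 183 in WT and 20.7 to 51.9 in KO, was the one call (adjusted p = 0.049997), against 0.488% of all genes called lower. Its log2 difference was -1.97, and -1.61 without KO array 3 (adjusted p = 0.135), a fit in which 2 of all genes tested passed. Skeletal muscle and inner ear lists had 2 tested genes each and no call (0 unadjusted), with sums of 1886 to 1999 and 237 to 350 in WT and 1456 to 2324 and 229 to 447 in KO. Most of the skeletal muscle sum was Tcf21, at 1660 to 1755 in WT and 1244 to 2033 in KO, while Myf5, Pax7 and Msc were below the limit on all arrays. The ratio of 3' to 5' Gapdh signal, a measure of how intact the RNA was, came to 1.11 ± 0.0175 in WT and 0.969 ± 0.0274 in KO (SD, n = 3), without overlap, and that of Actb was 2.52 ± 0.147 and 2.40 ± 0.164. The part of the endoderm and foregut genes or of the Gapdh ratio in the values of Kcne1 and Kcnh2 was not tested.

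The genes most like Kcne1 over the 6 arrays were Ckmt2, the muscle mitochondrial creatine kinase, Strip2 and Cpt1a, a carnitine palmitoyltransferase of fatty acid oxidation. Likeness is the root-mean-square distance between log2 values, each minus the gene's own mean, and it was 0.10, 0.14 and 0.14. Ckmt2 read 125, 101 and 145 in WT, against 185, 314 and 289 in KO, the same order of arrays as Kcne1. Within 0.2 of Kcne1 lay 9 of the genes tested. For Kcnh2 the nearest were Pdia6, Slc27a3 and Trip11, at 0.02, 0.02 and 0.03. Kcnh2 itself deviated from its mean by 0.19 on this measure, so genes that hardly vary also lie close to it.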

How the data were processed

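The file holds the authors' deposited signal intensity of each probe set, linear and not logged. The submitters' processing notes name MAS5 and Affymetrix Expression Console, with versions not given in the sources used here. No further scaling was applied. Members, lists, tests and alternatives were chosen with earlier results of these data known.

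Of 45037 probe sets, 34945 have exactly 1 symbol, giving 18193 genes. Probe sets above the limit, each array's 40th percentile, on at least 3 arrays were tested on log2 values by limma (version 3.58.1, R 4.3.3) with lmFit and eBayes, an intensity trend, Benjamini-Hochberg adjustment and a threshold of 0.05. This was done with 1 probe set per gene (the highest mean log2 signal, 12712 genes) and with every probe set (27404). "Rose" and "fell" refer to the gene fit, and errors of log2 differences are limma's standard errors. The number of arrays, 3 per group, limits the precision.

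Named genes are the 9 members, the called genes of each list and up to 3 with the smallest p, Rnd3, Xist, Uty, Kdm5d, Eif2s3y, and the 3 genes nearest to Kcne1 and Kcnh2. Results for Kcnj2, Hcn3, Akap9, Shox2, Vsnl1, Nr2f1, Isl1, Tbx2, Gjc1, Myl4, Gja5, Apom and Shh were added after their values were seen. So were those for Smoc2, Stard10, Myl7, Myl2, Myl3, Hey2 and Irx2. In simulated data with real means and spreads (200 changed genes, 10 runs), the gene fit over 12712 genes found 39.0% of the 1.5-fold changes and 68.2% of the 2-fold changes, and 4.47% of calls were false. Each simulated gene was drawn independently, with the same spread in both groups. Shifts shared by many genes on 1 array were not simulated, so these shares are not rates for the real arrays. Deviations from the group means correlated at 0.02, 0.06 and 0.02 between arrays of the same number. Between arrays of different numbers they correlated at -0.04 to 0.02. All of these were small, so the numbers were not treated as pairs. RefSeq promoters (GRCm38.p6) were given for 7 of the 9 genes, Kcne1 and Kcnq1 not among them.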

Additional observations from a re-analysis of the deposited data

How the results depend on the processing

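Kcne1, Kcnh2, Kcnj5, Kcnd3 and Hcn2 kept their direction in the gene fit under each alternative that gave a value, with sizes that moved when 1 array was left out, from 0.81 to 1.18, -0.37 to -0.24, 0.044 to 0.28, 0.049 to 0.43 and -0.90 to -0.23. The count of genes called, 162, rested on the processing. It was 805 at an adjusted p of 0.10, 83 with median centring (67 higher and 16 lower, against 100 and 62), 1 without the filter, 291 with a signal above the limit on all 6 arrays, 1 without the intensity trend, 542 with array weights, 6 with Xist as covariate and 0 with a gene's probe sets averaged. Leaving out 1 array gave 0 to 916. The count of probe sets called, 163, was 809 at an adjusted p of 0.10, 273 with a floor at the limit, 23 without the filter, 368 above the limit on all 6 arrays, 0 without the trend, 503 with array weights and 7 with Xist as covariate. Leaving out 1 array gave 1 to 934.

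Differences near 0 changed sign, and so did some larger ones, such as those of Kcnj5 1421762_at (0.33) and Kcnd2 1422834_at (0.21). Kcnd2 (-0.02) had 0.027 with quantile normalization, 0.038 with median centring, 0.45 with Xist as covariate and 0.13 with its probe sets averaged, and its probe set 1450773_at (-0.06) had 0.82 with Xist as covariate. With that covariate Kcnj3 had 0.48, Kcnq1 -0.022 and Kcnj5 1421762_at -0.13, and with array weights Kcnj3 1444025_at had -0.11. Leaving out 1 array moved Kcnd2 between -0.25 and 0.18, its 1422834_at between -0.042 and 0.40 and 1450773_at between -0.52 and 0.29, Kcnj3 between -0.40 and 0.15, its 1444025_at between -0.24 and 0.51, and Kcnq1 between -0.049 and 0.35. The cause was not tested. With the replicate number as a block (replicate block), 189 genes and 213 probe sets passed, and Kcne1 had 1.01 (limma adjusted p = 0.0374). The block changed no member's call in the gene fit and, of the probe sets tested alone, brought the brighter Kcne1 probe set past the threshold (adjusted p = 0.0494). Signal near the limit restricts what can be said of Hcn2 and Kcnd3.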
